A study of Tupaia belangeri with 2 samples.

Results

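Solute carriers (SLC genes) encode the transport proteins that move ions, sugars, amino acids, metals and organic molecules across the membranes of cells and their organelles. Genes were taken as members when their name in the deposited annotation began with SLC and a number, with at least 100 unique molecular identifiers (UMIs, each marking a captured transcript) over both embryos, and with SLC17A6, SLC1A3, SLC7A10, SLC39A12 and SLC25A39 left out. This gave 116 members among 18543 gene names. Of 283 SLC names in the annotation, 278 fell under the rule and 162 of them stayed below the minimum, including 37 with 0 UMIs. The member just inside the minimum was SLC39A5 with 101 UMIs, and the names just outside it were SLC17A5 with 99 and SLC43A3 with 98.

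The data are single-cell transcriptomes of tree shrew (Tupaia belangeri) whole brains, from 2 embryos aged 4 to 5 postconceptional weeks, each captured in its own 10x 3′ library. No treatment, genotype or other condition separates the embryos, so the comparisons are between cell classes. The dura mater and blood vessels were taken off before dissociation, according to the labels, which limits what the meningeal and vascular cells described here stand for. The classes were formed from the other genes of the same cells, since SLC names entered neither the clustering nor the marker lists.

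In the brain, carriers at the blood-brain barrier, the meninges and the choroid plexus supply glucose, amino acids and metals and clear organic ions, while carriers of neurons and glia take up transmitters and set the chloride gradient on which the action of GABA depends. Several carriers work in pairs: SLC3A2 is the heavy chain that brings light chains such as SLC7A5 (large neutral amino acids) and SLC7A11 (cystine against glutamate) to the plasma membrane. Red blood cells are known for the anion exchanger SLC4A1 (band 3) and the urea transporter SLC14A1.

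The libraries held 9241 and 9685 barcodes with 41868023 and 38077767 UMIs for embryos 1 and 2, and 18 of the 18926 barcodes occurred in both. Haemoglobin genes took 28.7% and 13.6% of the UMIs. In the 17727 cells with at least 200 genes detected, 12 classes were named from their markers, from 86 endothelial-like cells to 3037 inhibitory midbrain neuron-like cells. The class named by ZIC and CBLN1 genes scored on a granule neuron marker list, but HOX genes led part of it, and it is called ZIC/CBLN1 neurons here. The endothelial-like class also carried pericyte genes (ABCC9 at 637 and 368 UMIs per 1000000 UMIs, CPM, in embryos 1 and 2), and the choroid plexus-like class ciliary genes (RSPH1, FAM216B and WDR38 among the 10 genes that led it). In this text, p-values rest on the spread between embryos that is left after a shift common to all classes is removed. This spread is pooled over the classes and partly over genes, so it is not that of the tested class alone. Each class has n = 2 embryos. A lower CPM of a class cannot be told apart from a higher total of its other transcripts.

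Members made up 113610 UMIs in all, which was 0.123% of the UMIs of embryo 1 and 0.163% of those of embryo 2, with 101 to 12706 UMIs per member and a median of 289. Outside haemoglobin, the share of UMIs that fell on members was highest in the endothelial-like class, at 0.279% and 0.365% in embryos 1 and 2, and in the meningeal fibroblast-like class, at 0.280% and 0.319%. It was 0.223% and 0.240% in ZIC/CBLN1 neurons, 0.153% and 0.164% in radial glia-like cells, and 0.139% and 0.142% in erythroid-like cells. The choroid plexus-like share, at 0.142% and 0.209%, differed between embryos by more than the shares of radial glia-like and erythroid-like cells differed from each other. SLC3A2 alone supplied 230 of the 597 member UMIs of endothelial-like cells in embryo 1 and 383 of 976 in embryo 2.

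The members with the most UMIs were the zinc importers SLC39A6 with 12706 and SLC39A10 with 9099, the mitochondrial ADP/ATP carrier SLC25A6 with 6666, SLC4A1AP with 6228 and SLC35B1, a carrier of the endoplasmic reticulum, with 5752. SLC4A1AP, SLC2A4RG, SLC7A6OS and SLC9A3R1 bear a carrier's name but are not carriers. By family, 18 members were mitochondrial carriers, 16 carried nucleotide sugars or acetyl-CoA and 11 carried zinc. Some carriers stand in the annotation under protein-style names and were not counted.

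For 67 of the 116 members (57.8%) the class with the highest CPM was the same in both embryos, beside 50.9% of the 9565 names that passed the same minimum. Meningeal fibroblast-like cells were the shared highest class of 15 members (12.9%, beside 5.46% of all names), endothelial-like cells of 12 (10.3%, beside 5.91%) and ZIC/CBLN1 neurons of 12 (10.3%, beside 8.51%). Microglia-like cells held 9 such members, choroid plexus-like cells 6 and erythroid-like cells 3. Dividing cells held only SLC12A1 among members (0.862%), whereas 5.74% of all names were highest there. In the small classes some of these places rest on fewer than 3 counts. SLC25A44 was highest in microglia-like cells at 8.35 and 6.91 CPM, where 3 counts are 12.5 and 10.4 CPM. SLC25A38 was highest in endothelial-like cells at 4.42 and 3.51 CPM, where 3 counts are 13.3 and 10.5 CPM. These shares are descriptions, and they were not tested.

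**Figure D1:**
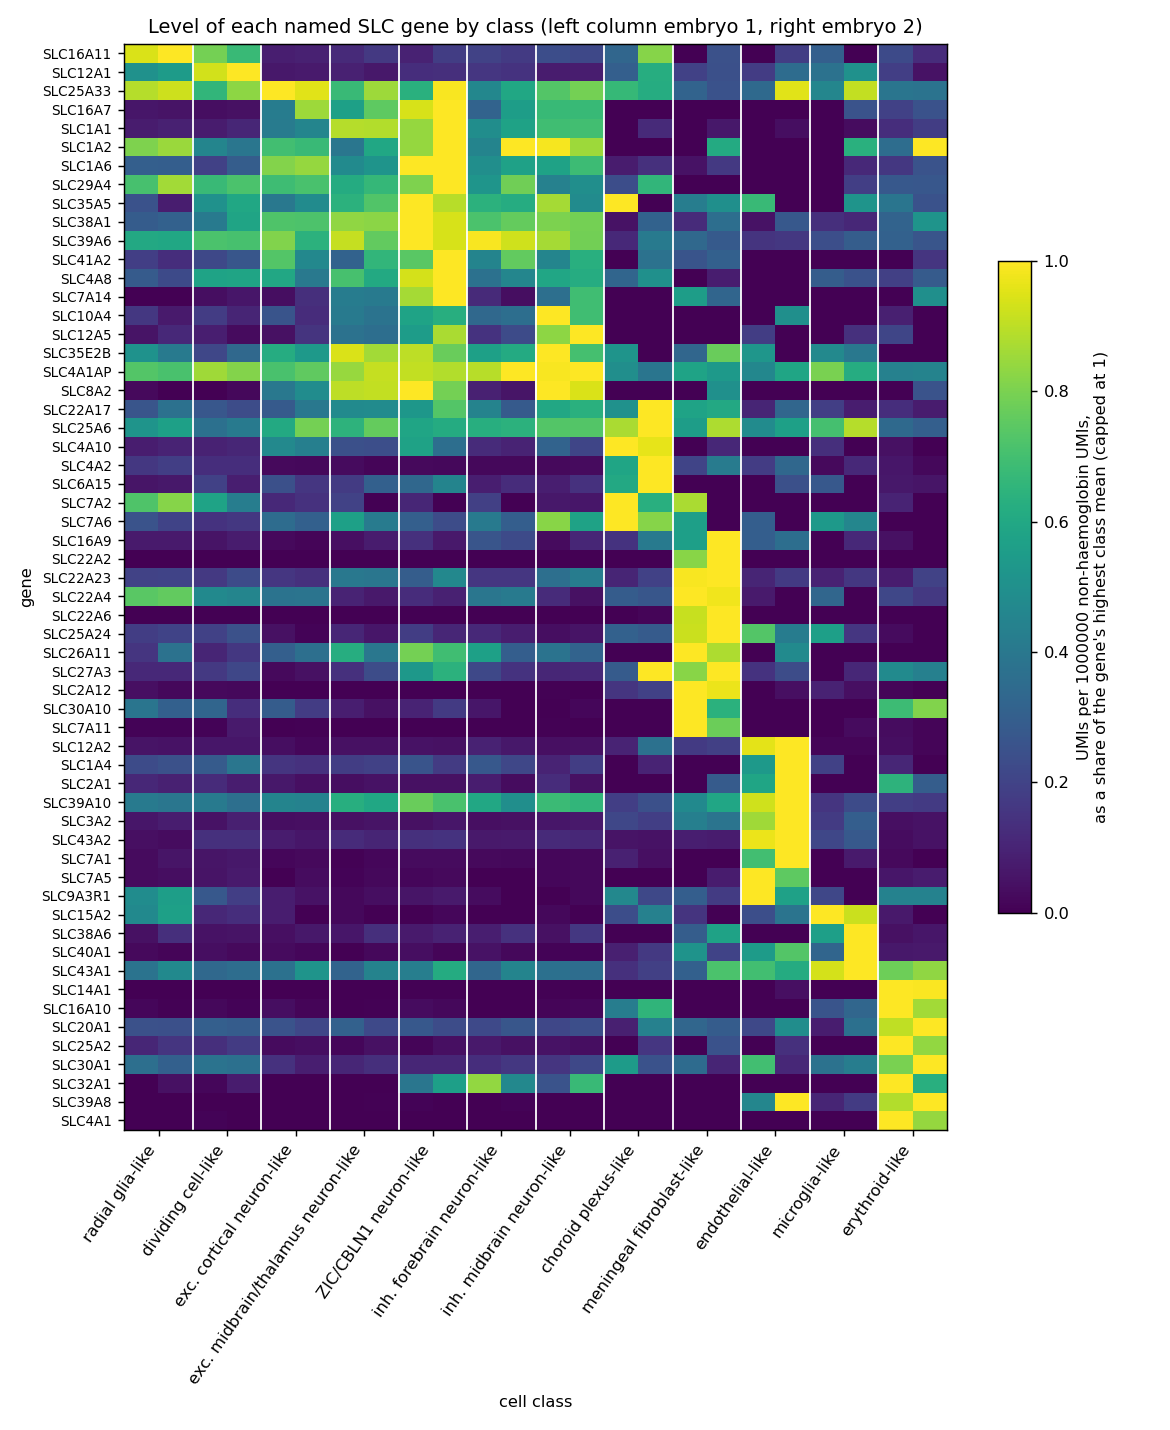
Levels of selected members (rows) in the 12 classes (columns, embryo 1 left and embryo 2 right within each class), as UMIs per 1000000 non-haemoglobin UMIs divided by the gene's highest class mean and capped at 1. Blocks of high values sit in the fibroblast-like, endothelial-like, microglia-like and erythroid-like columns, while members such as SLC4A1AP and SLC25A6 are spread over most classes.

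Of the members, 109 passed the filter on low counts and were tested. The untested members were SLC25A37, SLC25A38, SLC27A4, SLC35D1, SLC37A3, SLC39A5 and SLC49A4. For 6 non-neuronal classes the reference was the average of the 5 neuron-like classes, so those comparisons share their reference libraries. A member is called higher or lower at an adjusted p under 0.05.

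Meningeal fibroblast-like cells (116 cells, COL1A1, COL1A2 and COL3A1 among 7 detected markers) held the members with the largest ratios to any other class. Here 21 of 109 members were higher than in neurons, beside 18.4% of all names tested, and 13 were lower, beside 17.8%, which makes 34 called beside 36.2%. The median log2 fold change was 0.072 over members, or 0.36 with members at 0 UMIs in a group set to their bound, and -0.22 over all names. Among 5 organic ion carriers 4 were higher and 0 lower. The 4 include SLC22A2 and SLC22A6, which passed the UMI minimum only through these cells, so this count is no independent result.

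SLC22A6, an organic anion transporter best known from the kidney, stood at 290.1 CPM in embryo 1 and 346 CPM in embryo 2 in these cells, and at most at 0.631 CPM in any neuron-like class. Its log2 fold change was 11.17 ± 0.32 (SE, adjusted p = 1.92e-54). With edgeR, the SE here and below is the absolute log2 fold change divided by the square root of the test's F statistic. Neurons held 4 UMIs of SLC22A6 and 5 of SLC22A2, and at such counts this SE can be smaller than the counting error. SLC22A2, an organic cation transporter, stood at 244 and 353 CPM against at most 0.425 CPM in neurons, with a log2 fold change of 11.08 ± 0.35 (adjusted p = 8.35e-51). Both genes were close to 0 in every other class: outside fibroblast-like cells SLC22A6 reached at most 2 UMIs in a library, and SLC22A2 likewise 2 UMIs.

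The cystine carrier SLC7A11 reached 139 and 89.1 CPM in fibroblast-like cells, and its partner SLC3A2 537 and 479.8 CPM. SLC7A11 was at most at 0.849 CPM in neurons, so that both embryos lay far above them (log2 fold change 9.71 ± 0.53, adjusted p = 1.28e-31). SLC3A2, chosen here after its values were seen, was higher than in neurons by 3.17 ± 0.13 on the log2 scale (adjusted p = 1.34e-41). SLC22A2, SLC22A6 and SLC7A11 were the 3 tested members of the meningeal list, and all 3 were higher, with a median log2 fold change of 11.08. That list holds 12 genes, of which 10 had a model of that name. Fibroblast-like cells held 84 and 103 of the 200 UMIs of SLC22A2, 100 and 101 of 209 of SLC22A6 and 48 and 26 of 161 of SLC7A11. None of the 3 would have passed the UMI minimum without these cells, so their count and median are no independent result.

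Other fibroblast-like members below were chosen after their values were seen. The sugar carrier SLC2A12 stood at 89.9 and 85.7 CPM, and neurons held 2 of its UMIs, a ratio of 1234 with an exact 95% counting interval of 326 to 10439. With 138 UMIs in all, it would not have passed the UMI minimum without fibroblast-like cells.

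SLC22A4 (63.8 and 61.7 CPM, log2 fold change 2.72 ± 0.33), SLC16A9 (17.4 and 44.6 CPM, 3.71 ± 0.55) and the mitochondrial ATP-Mg carrier SLC25A24 (40.6 and 47.98 CPM, 3.92 ± 0.44) were also higher in fibroblast-like cells. The iron exporter SLC40A1 was higher there too, at 26.1 and 10.3 CPM, where 3 counts are 8.70 and 10.3 CPM. Below the UMI minimum, SLC13A3 and SLC13A4, sodium-coupled carriers of dicarboxylates and of sulfate, had 27 and 30 UMIs in fibroblast-like cells. Those counts were 16 and 11 in embryos 1 and 2 for SLC13A3 and 8 and 22 for SLC13A4.

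**Figure D2:**
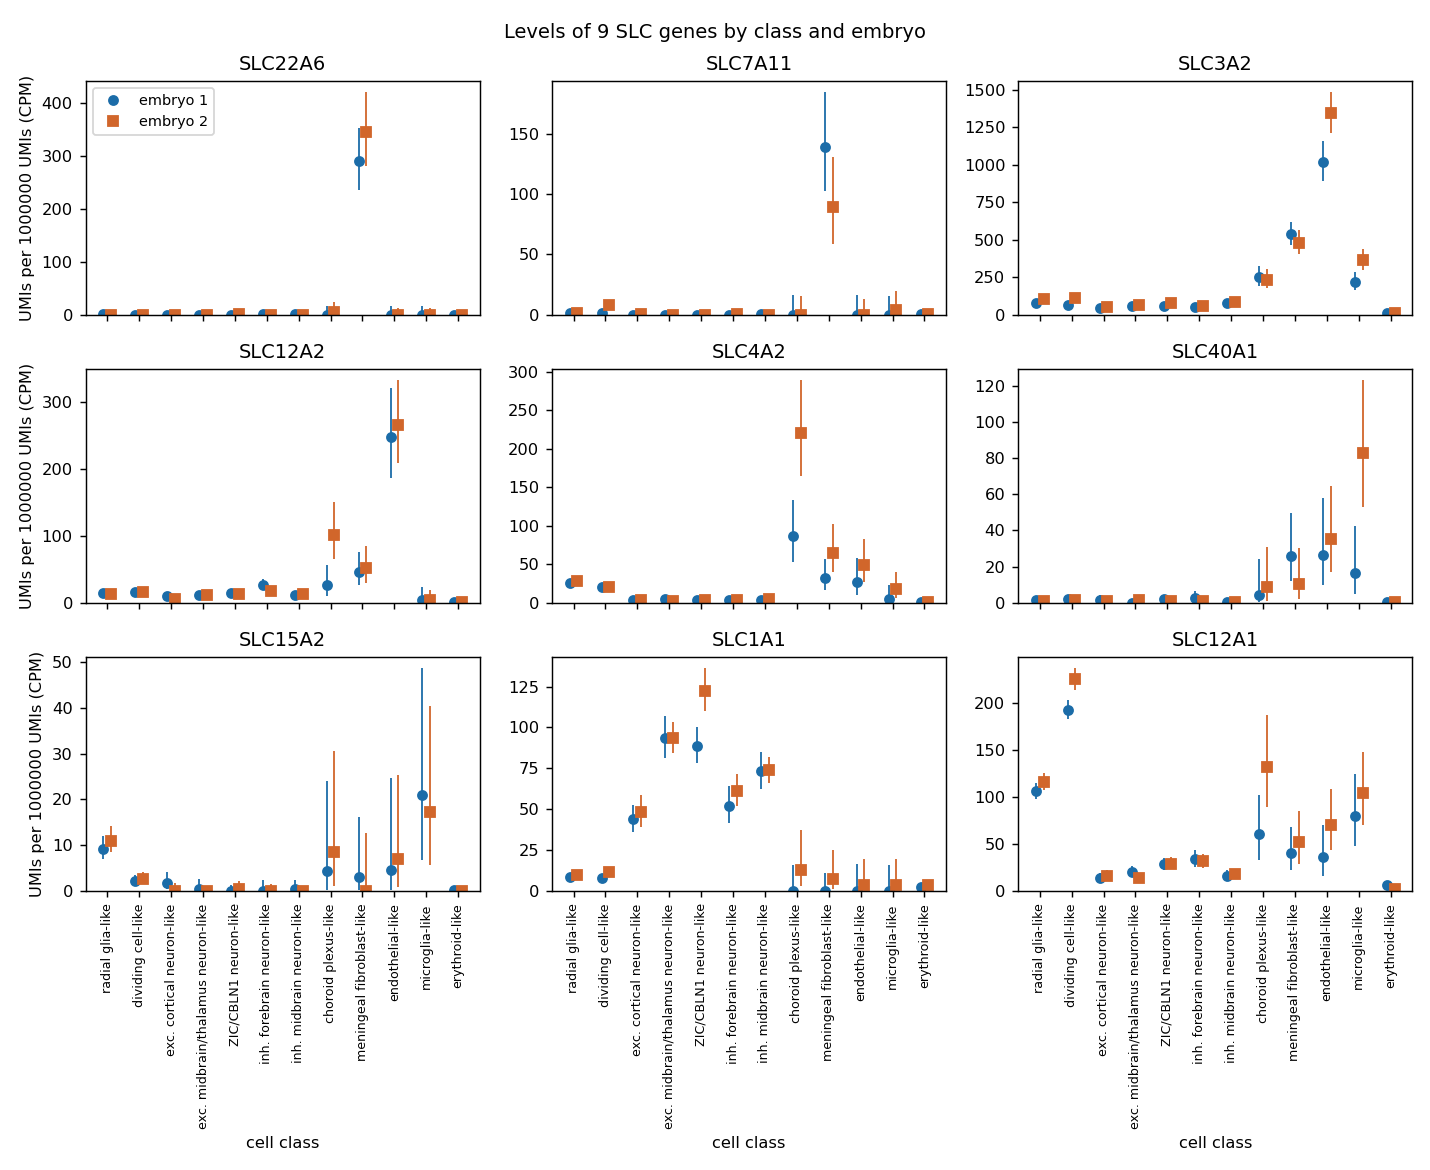
CPM of 9 members in the 12 classes, with circles for embryo 1, squares for embryo 2 and vertical lines for the exact 95% Poisson interval (counting error only). SLC22A6 and SLC7A11 stand high in fibroblast-like cells, SLC3A2 and SLC12A2 in endothelial-like cells, SLC4A2 in choroid plexus-like cells, SLC1A1 in the 5 neuron-like classes and SLC12A1 in radial glia-like and dividing cells. In embryo 2, choroid plexus-like cells came next to dividing cells for SLC12A1, above radial glia-like cells.

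Endothelial-like cells (86 cells, 10 detected markers such as PECAM1 and CDH5) held the highest SLC3A2 level of all classes in both embryos. Against neurons 16 of 109 members were higher, beside 16.6% of all names, and 16 were lower, beside 16.9%, which makes 32 called beside 33.5%. The median log2 fold change was -0.56 over members, or 0.074 with members at 0 UMIs at their bound, and -0.31 over all names. Among amino acid carriers, 3 of 7 cationic and heteromeric ones were higher and 0 lower, 2 of 12 other amino acid and peptide carriers were higher and 1 lower, and 1 of 4 glutamate and neutral amino acid carriers was higher and 2 lower. On the endothelial list, 6 of 7 tested members were higher and 0 lower, with a median of 4.39. One of them, SLC7A5 with 112 UMIs in all, would not have passed the UMI minimum without these cells. Its part in the count is therefore no independent result.

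SLC3A2 stood at 1017 CPM in embryo 1 and 1343 CPM in embryo 2, against 44.5 to 87.6 CPM in neuron-like libraries (log2 fold change 4.39 ± 0.11, adjusted p = 1.99e-62). Its light chain SLC7A5, which carries large neutral amino acids over the blood-brain barrier, stood at 53.1 and 31.6 CPM against at most 1.43 CPM in neurons (6.47 ± 0.67, adjusted p = 1.1e-14). The cationic amino acid carrier SLC7A1 was at 66.3 and 123 CPM (5.68 ± 0.38). Each of these carriers was higher in both embryos than in any neuron-like library.

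SLC43A2, a carrier of neutral amino acids, was at 164 and 172 CPM, 4.36 and 3.55 times its level in the next class. The sodium-potassium-chloride cotransporter SLC12A2 was at 248 and 266 CPM (log2 fold change 4.45 ± 0.22, adjusted p = 2.5e-36). SLC2A1, the glucose transporter of the blood-brain barrier, had lower counts, at 13.3 and 31.6 CPM against 0.777 to 2.97 CPM in neurons (4.27 ± 0.71, adjusted p = 3.09e-07). Metals were represented by SLC40A1 (26.5 and 35.1 CPM, 5.02 ± 0.68) and SLC39A10 (261 and 298 CPM, 0.79 ± 0.14).

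SLC39A8, a zinc and manganese importer named after its values were seen, was at 17.7 and 42.1 CPM in endothelial-like cells, and neurons held 3 of its UMIs (ratio 309, exact 95% counting interval 88.4 to 1654). With 104 UMIs in all, SLC39A8 would not have passed the UMI minimum without endothelial-like cells. SLC39A6, also chosen so, went the other way, from 179 to 294 CPM in neurons to 39.8 and 42.1 CPM (log2 fold change -2.43 ± 0.26, adjusted p = 2.17e-14). Thus the related zinc importers SLC39A10 and SLC39A6 differed from neurons in opposite directions. Among the lower members, the neuronal glutamate carrier SLC1A6 had 0 UMIs in endothelial-like cells, at least 6.92-fold lower than in neurons by the floor of 3 counts over the class.

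Since the class carried pericyte genes, its cells were divided by whether they held more endothelial or more pericyte marker UMIs, a split made after the data had been seen and not tested. The 45 cells with more endothelial UMIs had SLC3A2 at 1228 and 1502 CPM, SLC7A1 at 83.1 and 139 CPM and SLC12A2 at 160.2 and 190.3 CPM. In the 22 cells with more pericyte UMIs, SLC12A2 was at 819 and 912 CPM and SLC3A2 at 273 and 135 CPM. SLC7A1, SLC7A5, SLC39A8 and SLC2A1 had 0 UMIs of 58941 in those cells, which allows up to 50.9 CPM. SLC7A1 was above that limit in the cells with more endothelial UMIs, at 116 CPM over both embryos, whereas SLC7A5 (42.8 CPM), SLC39A8 (38.0 CPM) and SLC2A1 (28.5 CPM) were below it, so that a difference in these 3 was not detectable at this depth. Within single embryos the limit was 102 and 101 CPM, which SLC7A1 passed in embryo 2 (139 CPM) but not in embryo 1 (83.1 CPM). In both embryos SLC12A2 was thus higher in the cells with more pericyte UMIs, and SLC3A2 in those with more endothelial UMIs. The class level of SLC12A2 did not rest on the first set alone. Cells with more endothelial UMIs held 75 of its UMIs, beside 51 in cells with more pericyte UMIs. The remaining 19 cells held equal numbers of both.

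**Figure D3:**
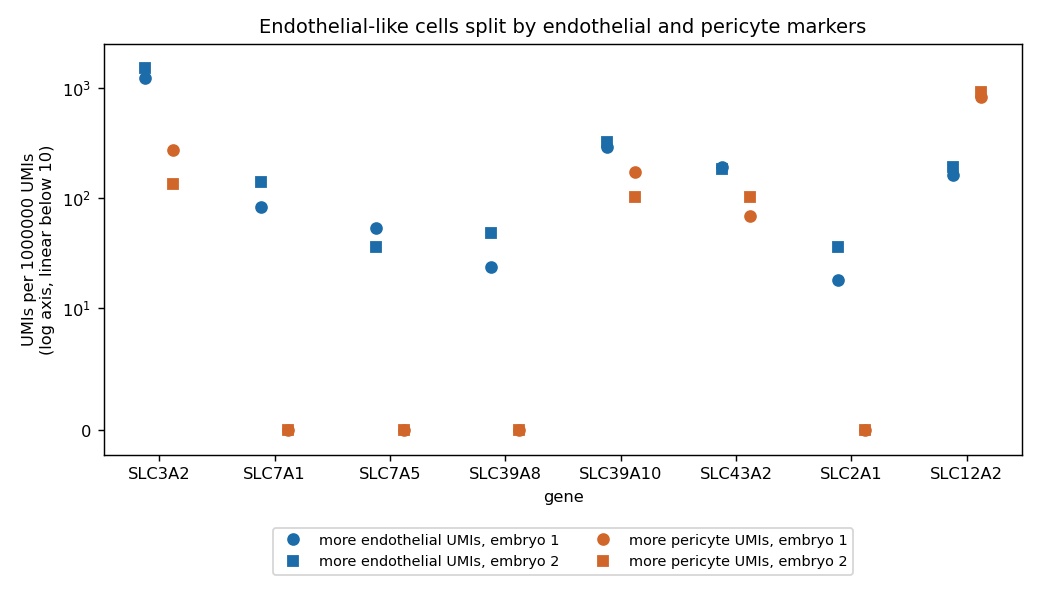
CPM of 8 members (log axis, linear below 10) in endothelial-like cells with more endothelial marker UMIs (blue, 45 cells) and with more pericyte marker UMIs (orange, 22 cells), circles for embryo 1 and squares for embryo 2. SLC12A2 is higher in the second set, SLC3A2, SLC39A10 and SLC43A2 in the first, and 4 carriers are at 0 UMIs in the second, where 0 UMIs allow up to 50.9 CPM over both embryos. The second set held only 8 UMIs of SLC39A10 and 5 of SLC43A2, and no difference was tested.

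Choroid plexus-like cells (163 cells, with the markers TTR, CLIC6 and FOLR1) had 17 of 109 members higher than in neurons, beside 13.9% of all names, and 10 lower, beside 13.6%. Members had a median log2 fold change of -0.46, or 0.24 with members at 0 UMIs at their bound, and all names of -0.34. On the choroid plexus list 4 of 5 tested members were higher, with a median of 2.68, and SLC29A4 was not called (log2 fold change -0.27 ± 0.72, adjusted p = 0.851).

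SLC4A2, an anion exchanger of the epithelium, stood at 86.5 CPM in embryo 1 and 221 CPM in embryo 2, against 2.39 to 4.84 CPM in neurons (log2 fold change 5.75 ± 0.32, adjusted p = 1.85e-31). These levels were 2.71 and 3.39 times those of the next class, the fibroblast-like cells. The bicarbonate carrier SLC4A10 was at 30.3 and 29.7 CPM (2.19 ± 0.52, adjusted p = 0.000372) and SLC12A2 at 25.9 and 102 CPM (2.68 ± 0.38, adjusted p = 3.19e-09). SLC12A2 and SLC4A2 were 2 or more times higher in embryo 2. Ciliary genes of this class were also higher in embryo 2, with RSPH1 at 195 and 395 CPM, FAM216B at 43.2 and 229 CPM, WDR38 at 60.5 and 140.1 CPM and FOXJ1 at 0 and 21.2 CPM, and haemoglobin took 5.80% and 0.0819% of the UMIs. Their part in the difference between embryos was not tested.

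SLC2A12 was at 12.97 and 16.98 CPM in choroid plexus-like cells, a ratio to neurons of 215 with an exact 95% counting interval of 40.98 to 2124, on 7 and 2 UMIs. SLC3A2 reached 251 and 233 CPM there (log2 fold change 2.33 ± 0.20) and SLC25A6 151 and 208 CPM (0.89 ± 0.19). SLC16A10 and SLC6A15 were chosen after their values were seen. SLC16A10, a carrier of aromatic amino acids, stood at 12.97 and 21.2 CPM (5.88 ± 0.97), where 3 counts are 12.97 and 12.7 CPM. SLC6A15, a carrier of neutral amino acids, stood at 17.3 and 42.4 CPM (2.67 ± 0.58). Both were past the threshold.

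Microglia-like cells (158 cells, markers CSF1R, C1QB, AIF1 and TYROBP) had 15 of 109 members higher than in neurons, beside 16.0% of all names, and 8 lower, beside 15.0%. P2RY12, CX3CR1 and TREM2 of the microglial marker list did not count for this class, and TIMD4 and MRC1 were among the genes that led it. Whether it also holds other macrophages was not tested. The median log2 fold change was -0.41 over members, or -0.053 with bounds, and -0.33 over all names. SLC40A1, the only tested member of the microglial list, was at 16.7 CPM in embryo 1 (4 UMIs) and 82.9 CPM in embryo 2 (24 UMIs), and at 0 to 2.52 CPM in neurons. Its log2 fold change was 5.91 ± 0.56 (adjusted p = 9.73e-17). SLC3A2 was at 217 and 363 CPM (2.52 ± 0.18).

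The other microglia-like members were chosen after their values were seen. SLC15A2, which imports small peptides, was at 20.9 and 17.3 CPM (log2 fold change 6.67 ± 0.93, adjusted p = 1.79e-09), above every neuron-like library. SLC38A6 was at 16.7 and 41.5 CPM (3.70 ± 0.57), SLC43A1 at 62.6 and 69.1 CPM (1.49 ± 0.30) and SLC43A2 at 37.6 and 48.4 CPM (1.58 ± 0.36). SLC43A1 and SLC43A2 carry neutral amino acids. SLC15A3, a peptide carrier of lysosomes below the UMI minimum, had 18 of its 31 UMIs in this class.

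**Figure D4:**
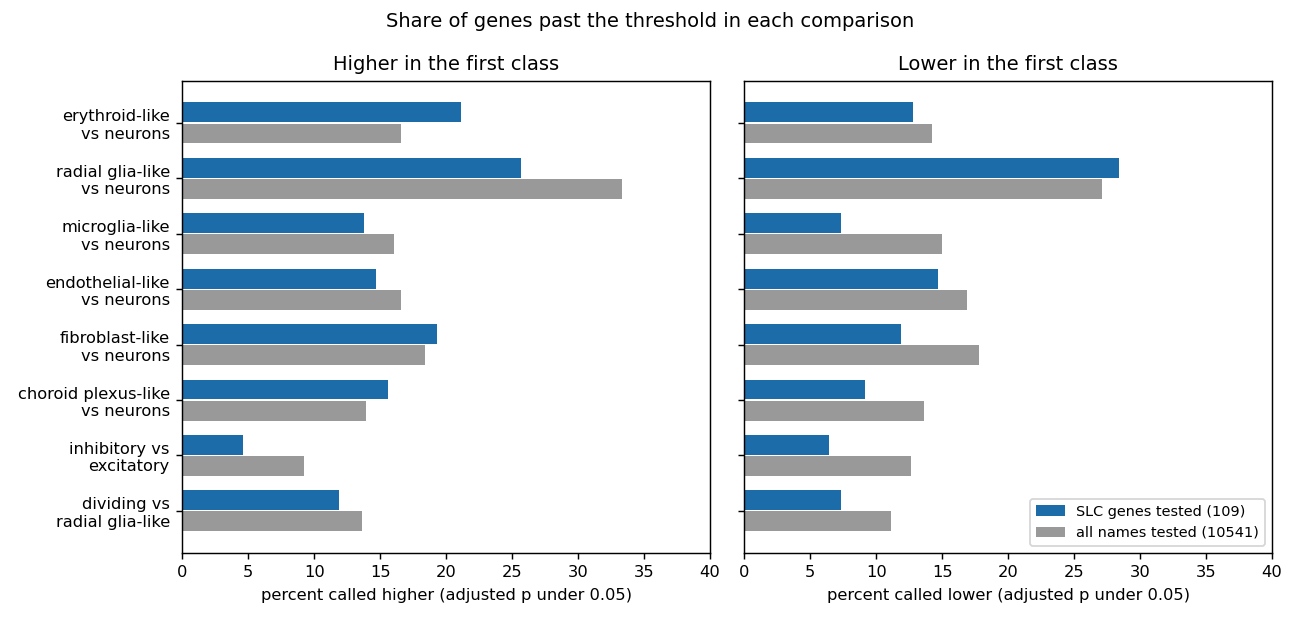
Percent of the 109 tested members (blue) and of all 10541 tested names (grey) called higher (left) or lower (right) in each of 8 comparisons, on axes that start at 0. The members lie above the grey bar for erythroid-like cells higher (21.1% beside 16.6%) and below it for radial glia-like cells higher (25.7% beside 33.3%). The erythroid-like share includes SLC4A1, SLC14A1, SLC39A8, SLC16A10 and SLC32A1. These passed the UMI minimum only through erythroid-like cells, so the excess is no independent result. It also depends on the scaling, since 7 members were higher with library totals.

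Erythroid-like cells (1402 cells) were compared with neurons by the same test, with haemoglobin at 84.6% and 83.4% of their UMIs in embryos 1 and 2. Of 109 members 23 were higher, beside 16.6% of all names, and 14 were lower, beside 14.2%. This split depends on the scaling, because haemoglobin fills the libraries: with library totals 7 members were higher and 91 lower, and without haemoglobin in the totals 19 were higher and 39 lower. Those scalings moved the median of all names by -3.26 and -0.74 on the log2 scale. Levels of erythroid-like cells below are therefore UMIs per 1000000 non-haemoglobin UMIs.

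Of 8 tested members of the erythroid list 7 were higher and 0 lower, with a median log2 fold change of 3.01, beside -0.026 over members and -0.14 over all names. The list names 14 carriers known from red blood cells, of which 10 passed the UMI minimum. SLC4A1 (104 and 29 of its 148 UMIs in this class) and SLC14A1 (137 and 52 of 234) passed it only through these cells. So did SLC25A37 (39 and 33 of 156), which was not tested. The part of SLC4A1 and SLC14A1 in the count of 7, and of all 3 in the count of 10, is therefore no independent result. The same limit holds for 3 members off the list. SLC39A8 had 80 of its 104 UMIs in this class. In clusters 8 and 11 of the class, described below, SLC16A10 had 70 and 1 of 122 UMIs and SLC32A1 had 1 and 19 of 115. Without erythroid-like cells these members would not have passed the minimum, so their calls are no independent results either. SLC11A2, an iron importer, was not called (0.75 ± 0.71, adjusted p = 0.478). With library totals, 10 of the called members changed sign. They included SLC43A1 and SLC40A1 of that list, and SLC12A1, SLC16A11, SLC20A1, SLC27A3 and SLC3A2 among the other members named for this comparison. Of that list only SLC4A1 and SLC14A1 stayed called higher.

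SLC4A1, the anion exchanger of the red cell membrane, was at 69.6 in embryo 1 and 50.7 in embryo 2, and at 0 UMIs in all neuron-like libraries, which makes it at least 598-fold higher by the floor of 3 counts over the neurons. Its adjusted p was 1.06e-37 with edgeR, whereas DESeq2 gave an adjusted p of 0.147 with a log2 fold change of 10.61 ± 5.51. Outside erythroid-like cells its only UMIs in a named class were 5 in dividing cells of embryo 1, or 30.4 per 1000000 haemoglobin UMIs, beside 12.6 and 10.1 in erythroid-like cells. The urea transporter SLC14A1 was at 91.7 and 90.9 against at most 0.425 CPM in neurons, which held 4 of its UMIs (log2 fold change 10.34 ± 0.38, adjusted p = 1.34e-45). SLC25A37, the mitochondrial iron importer and a member only through erythroid-like cells, was too low to be tested. It stood at 26.1 and 57.7 in erythroid-like cells and 0 to 3.74 in the other classes.

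Zinc carriers were called in both directions. SLC39A8, a member only through erythroid-like cells, was at 36.1 and 45.4, and neurons held 3 of its UMIs (ratio 360, exact 95% counting interval 119 to 1781, adjusted p = 4.12e-32). The zinc exporter SLC30A1 was at 26.8 and 40.2 (3.50 ± 0.29, adjusted p = 4.53e-20). In contrast, the zinc importers SLC39A10 (55.6 and 50.7, -0.95 ± 0.14) and SLC39A6 (86.4 and 73.4, -0.79 ± 0.12), chosen after their values were seen, were lower than in neurons.

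Among nutrient carriers, SLC16A10 was at 36.8 and 27.96 (7.21 ± 0.45, adjusted p = 4.1e-28), the mitochondrial ornithine carrier SLC25A2 at 31.5 and 22.7 (5.60 ± 0.39) and SLC2A1 at 15.4 and 6.99 (3.95 ± 0.50). The phosphate importer SLC20A1, chosen after its values were seen, was at 96.4 and 117 (2.75 ± 0.16). SLC32A1, the vesicular GABA carrier of inhibitory neurons, was at 11.4 and 5.24 (4.49 ± 0.69, adjusted p = 2.92e-08). The reference average includes the excitatory classes, which held no SLC32A1 UMIs, so this value is not the difference from inhibitory neurons. All neurons pooled stood at 2.69 CPM on 75 UMIs. Inhibitory forebrain cells of embryo 1 reached 6.94 CPM and inhibitory midbrain cells of embryo 2 reached 5.62 CPM, which overlaps with the erythroid-like values. The 7 members that stayed higher with library totals were SLC4A1, SLC14A1, SLC39A8, SLC16A10, SLC25A2, SLC7A11 and SLC9A3R1. With cluster 8 of this class alone, described below, SLC39A8, SLC2A1, SLC20A1, SLC32A1, SLC40A1, SLC9A3R1, SLC27A3, SLC3A2, SLC26A11, SLC22A17 and SLC41A2 were not called. With cluster 11 alone, SLC16A10, SLC7A11, SLC12A1, SLC16A11, SLC7A6, SLC35E2B, SLC26A11, SLC22A17 and SLC41A2 were not called, and SLC2A12 changed sign.

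The lower members included SLC35E2B, SLC7A6 and SLC26A11, each with 0 UMIs in erythroid-like cells and at least 4.82-, 4.67- and 2.47-fold lower than in neurons. Neurons held 100 of the 158 UMIs of SLC26A11. Without them it would not have passed the UMI minimum, so its call is no independent result. The glutamate carrier SLC1A1 was at 14.1 and 19.2 in erythroid-like cells (-1.38 ± 0.25, adjusted p = 1.72e-06). SLC12A1 was called higher (1.43 ± 0.24), but this rested on embryo 1, with 39.5 against 10.5 in embryo 2, and in embryo 2 alone its log2 fold change was -0.19. SLC2A12 was called on 2 UMIs of embryo 1, against 2 in neurons, a ratio of 13.5 with an exact 95% counting interval of 0.978 to 186.

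The erythroid-like class held 2 clusters with different haemoglobins. In cluster 8 (771 and 231 cells of embryos 1 and 2), embryonic globins made up 0.0170% and 0.00406% of haemoglobin UMIs, and in cluster 11 (264 and 136 cells) 93.0% and 98.4%. Haemoglobin took 88.3% and 88.0% of all UMIs in cluster 8 and 32.6% and 30.2% in cluster 11. Setting cluster 11 against cluster 8 was added after the data had been seen. With TMM scaling, 13 of 108 tested members were higher in cluster 11, beside 6.28% of all names, and 10 were lower, beside 9.92%. Those 13 were also higher with library totals and with totals free of haemoglobin. SLC39A8 and SLC32A1 are among the 13, and SLC14A1, SLC16A10 and SLC4A1 among the 10. All of these passed the UMI minimum only through the erythroid-like class, so their part in both counts is no independent result. The lower calls depend on the scaling: with haemoglobin-free totals 15 members were higher and 2 lower, and with library totals 44 were higher and 0 lower.

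The zinc and manganese importer SLC39A8 was at 1.88 and 0 in cluster 8 and at 120.1 and 136 in cluster 11, a ratio of 90.1 with an exact 95% counting interval of 24.1 to 757 (adjusted p = 2.41e-14). SLC20A1 went from 11.3 and 26.3 to 305 and 297 (3.85 ± 0.29, adjusted p = 2.38e-25). SLC25A2 (7.54 and 5.25 against 90.1 and 57.4), SLC2A1 (3.77 and 0 against 43.9 and 20.9) and SLC30A1 (4.71 and 18.4 against 80.9 and 83.5) were higher too, with no overlap between the clusters. Nearly all SLC32A1 UMIs of the class lay in cluster 11, with 16 and 3 against 1 and 0.

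SLC14A1 and SLC16A10 went the other way. SLC14A1 was at 118 and 131 in cluster 8 and at 27.7 and 10.4 in cluster 11 (-2.91 ± 0.41, adjusted p = 1.27e-09). SLC16A10 was at 50.9 and 42.0 in cluster 8 and at 2.31 and 0 in cluster 11, on 1 UMI (ratio 0.033, exact 95% counting interval 0.000824 to 0.190, adjusted p = 2.02e-07). Both were lower with TMM and with haemoglobin-free totals, but neither was called with library totals, where the log2 fold change of SLC14A1 was 0.054. SLC4A1 was present in both clusters, at 78.2 and 57.8 in cluster 8 and at 48.5 and 36.5 in cluster 11. It was called lower in cluster 11 with TMM (-1.12 ± 0.40, adjusted p = 0.0371), was not called with haemoglobin-free totals (-0.68, adjusted p = 0.313) and was called higher with library totals (1.84, adjusted p = 0.000266), so its direction depends on the scaling.

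**Figure D5:**
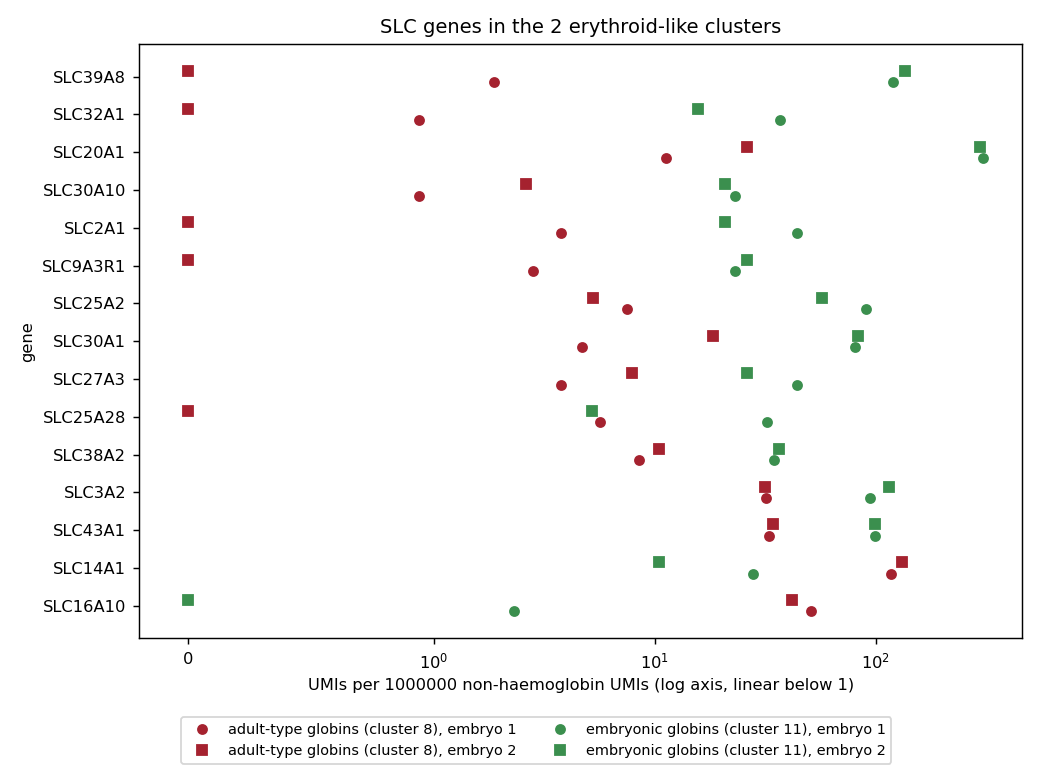
Levels of 15 members in cluster 8 (red, adult-type globins) and cluster 11 (green, embryonic globins), as UMIs per 1000000 non-haemoglobin UMIs on a log axis that is linear below 1, with circles for embryo 1 and squares for embryo 2. All members but SLC14A1 and SLC16A10 are higher in cluster 11; SLC25A28 is the member whose clusters overlap.

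Radial glia-like cells (2575 cells) are the neural progenitors of the embryonic brain. Of 109 members 28 were higher than in neurons, beside 33.3% of all names, and 31 were lower, beside 27.1%, which makes 59 called beside 60.4%. The median log2 fold change was -0.064 over members and 0.064 over all names. With library totals the split was 22 higher and 39 lower. On the radial glia list 4 of 8 tested members were higher and 0 lower (median 0.48), and on the neuron list 2 of 13 were higher and 9 lower (median -1.40). The higher ones were SLC35F1 and the myo-inositol carrier SLC2A13, called against the average of the neuron-like classes. In both embryos the highest class was a neuronal one. It was inhibitory forebrain cells for SLC35F1 (24.6 and 27.6 CPM) and ZIC/CBLN1 neurons for SLC2A13 (19.5 CPM in both).

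The peptide importer SLC15A2 was at 9.15 CPM in embryo 1 and 11.0 CPM in embryo 2, against at most 1.56 CPM in neurons (log2 fold change 5.70 ± 0.43, adjusted p = 1.18e-22). With 180 UMIs in all, it would not have passed the UMI minimum without radial glia-like cells. Its part in the count of the radial glia list is therefore no independent result. SLC9A3R1, a scaffold protein of apical membranes, was at 9.50 and 11.0 CPM (4.15 ± 0.32) and SLC4A2 at 25.2 and 28.7 CPM (3.102 ± 0.18). SLC16A11, a monocarboxylate carrier, was at 38.9 and 43.7 CPM (2.92 ± 0.15, adjusted p = 8.23e-35), and radial glia-like cells were its highest class in both embryos. SLC22A4 was at 46.6 and 47.9 CPM (2.43 ± 0.13).

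SLC12A1 stood at 106 and 116 CPM in radial glia-like cells, against 13.6 to 33.4 CPM in neurons (log2 fold change 2.65 ± 0.09, adjusted p = 4.73e-51). It is known as the sodium-potassium-chloride cotransporter of the kidney. In the RefSeq annotation of another assembly (TupChi_1.0), DUT, a gene of nucleotide metabolism, is its neighbour, whereas in the deposited annotation the model named DUT is not next to SLC12A1 and had 0 UMIs in all 12 classes. The origin of the reads counted under SLC12A1 was not tested.

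The glutamate carrier SLC1A2, known from mature astrocytes, was at 4.49 and 4.75 CPM in radial glia-like cells and 2.20 to 7.77 CPM in neurons, with no call (0.26 ± 0.29, adjusted p = 0.467). In cells with at least 1000 genes detected it was called, at 1.00. SLC7A11 was low, at 1.04 and 1.10 CPM, and still above neurons (3.08 ± 0.85, adjusted p = 0.00109). The serine and alanine carrier SLC1A4, at 9.85 and 10.8 CPM, overlapped with neurons at 4.25 to 11.99 CPM, with a log2 fold change of 0.55 ± 0.20 (adjusted p = 0.0122) that was not called without the embryo block, where it was 0.55, nor by DESeq2. SLC14A1, a urea carrier of astrocytes, had at most 1 UMI in a radial glia-like library.

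The 9 lower members of the neuron list included SLC7A14, SLC8A2 and SLC1A1. Neurons held 137 of the 157 UMIs of SLC7A14, 141 of 150 of SLC8A2 and 388 of 466 of SLC12A5, also on that list. These members passed the UMI minimum only through neurons, so their part in the count of 9 is no independent result. SLC7A14 had 0 UMIs in both embryos and was at least 18.3-fold lower. The sodium-calcium exchanger SLC8A2 had 1 UMI against 141 in neurons, a ratio of 0.0177 with an exact 95% counting interval of 0.000444 to 0.10. The neuronal glutamate carrier SLC1A1 was at 8.12 and 9.69 CPM against 43.7 to 123 CPM in neurons, with no overlap (-2.80 ± 0.15, adjusted p = 1.78e-33).

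SLC16A7, a monocarboxylate carrier of neurons, was at 0.864 and 0.731 CPM against 4.42 to 14.8 CPM (-3.24 ± 0.36, adjusted p = 7.65e-14). The potassium-chloride cotransporter SLC12A5, which lowers neuronal chloride, was at 1.38 and 2.93 CPM against 1.17 to 30.0 CPM and so overlapped with some neuron-like libraries (-1.82 ± 0.32, adjusted p = 4.19e-07). SLC6A15 (-1.45 ± 0.34) and SLC4A10 (-1.40 ± 0.28) were lower as well. The glutamine carrier SLC38A1, chosen after its values were seen, was at 27.5 and 29.3 CPM against 67.5 to 99.9 CPM (-1.24 ± 0.12).

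Dividing cells (2507 cells) were compared with radial glia-like cells. Of 109 members 13 were higher, beside 13.6% of all names, and 8 were lower, beside 11.1% (21 called, beside 24.8%), with a median log2 fold change of -0.045 over members and -0.017 over all names. Without the embryo block 11 members were called in place of 21. None of 4 tested members of the list for nucleotide, amino acid and one-carbon supply was called by edgeR: SLC7A5, SLC3A2, SLC25A32 and SLC38A2 had adjusted p of 0.199, 0.944, 0.559 and 0.0563, and 1 of them, SLC38A2, had an unadjusted p under 0.05, at 0.0144. DESeq2 called 0 of 4 as well.

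Apart from SLC12A1, the members named for this comparison were chosen after their values were seen. SLC12A1 was at 193 and 225 CPM in dividing cells, 1.82 and 1.71 times its level in the next class (0.96 ± 0.07, adjusted p = 1.66e-21). That next class was radial glia-like cells in embryo 1 and choroid plexus-like cells in embryo 2. SLC43A2 was at 24.4 CPM in both embryos against 7.43 and 6.03 CPM in radial glia-like cells (1.90 ± 0.19, adjusted p = 2.24e-15). SLC4A8, a sodium-coupled bicarbonate carrier, was at 24.1 and 24.7 CPM against 12.1 and 9.51 CPM (1.22 ± 0.18). SLC15A2 was lower, at 2.11 and 2.52 CPM (-2.05 ± 0.35, adjusted p = 8.09e-07), and SLC9A3R1 at 5.27 and 3.62 CPM (-1.13 ± 0.25).

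Among neurons, both inhibitory classes (forebrain and midbrain) were set against the excitatory cortical and the excitatory midbrain or thalamus class, with ZIC/CBLN1 neurons in neither group. Of 109 members 5 were higher in inhibitory cells, beside 9.22% of all names, and 7 were lower, beside 12.6%. Without the embryo block the count was 7 in place of 12, and with library totals 12 members were higher and 4 lower. The median log2 fold change was -0.0083 over members and 0.0085 over all names.

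SLC32A1, which loads GABA and glycine into synaptic vesicles, had 53 UMIs in inhibitory and 0 in excitatory libraries, at least 17.4-fold higher by the floor of 3 counts. It stood at 6.94 and 3.89 CPM in inhibitory forebrain cells and 2.12 and 5.62 CPM in inhibitory midbrain cells. ZIC/CBLN1 neurons held it too, at 3.26 and 4.70 CPM. On the inhibitory list it was the 1 member of 3 that was called. With 115 UMIs in all, SLC32A1 would not have passed the UMI minimum without the inhibitory cells, so this call is no independent result. SLC38A1 was not called (-0.14 ± 0.11, adjusted p = 0.406). On the excitatory list 0 of 2 tested members were called by edgeR, with unadjusted p of 0.151 for SLC1A1 and 0.196 for SLC38A1, so 0 were under 0.05, and DESeq2 called 0 of 2. SLC38A1 is also on the inhibitory list, and SLC17A7 of the excitatory list had no model of that name. A gene under the protein-style name VGLU1, not counted here, was at 28.1 and 27.6 CPM in excitatory cortical cells. It was at 1.32 and 0.239 CPM in excitatory midbrain or thalamus cells and at 0 in both inhibitory classes.

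The members named next for this comparison were chosen after their values were seen. SLC12A5 was at 21.2 and 30.0 CPM in inhibitory midbrain cells and 3.79 and 5.83 CPM in inhibitory forebrain cells, against 9.68 and 9.32 CPM in excitatory midbrain or thalamus cells and 1.17 and 3.81 CPM in excitatory cortical cells. Its log2 fold change was 1.13 ± 0.32 (adjusted p = 0.00413), although the inhibitory forebrain values lay below those of excitatory midbrain or thalamus cells. Its counterpart SLC12A2, which raises chloride, was highest among neurons in inhibitory forebrain cells, at 26.5 and 17.9 CPM (0.59 ± 0.20, adjusted p = 0.0236, not called without the embryo block). In inhibitory midbrain cells SLC12A2 was at 11.5 and 12.5 CPM, close to the 11.9 and 12.2 CPM of excitatory midbrain or thalamus cells.

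SLC16A9 was at 8.20 and 6.996 CPM in inhibitory forebrain cells and at most at 4.34 CPM in the other neuron-like libraries (1.71 ± 0.49, adjusted p = 0.00552). SLC4A10 was lower in inhibitory cells (-1.11 ± 0.26, adjusted p = 0.000507), with 14.4 and 13.3 CPM in excitatory cortical cells and 3.79 and 3.11 CPM in inhibitory forebrain cells. SLC6A15 was lower too (-1.10 ± 0.32, adjusted p = 0.00641). The largest ratios for single neuron-like classes were small: SLC2A13, a carrier of myo-inositol, was at 19.5 CPM in ZIC/CBLN1 neurons in both embryos, 2.21 and 1.86 times its level in the next class, and SLC35B4 was at 18.3 and 15.2 CPM in excitatory cortical cells, 1.45 times that of the next class in both embryos. The mean SLC2A13 level of ZIC/CBLN1 neurons was 7.13 CPM with clustering at a resolution of 1.0 and 6.94 CPM in cells with at least 1000 genes detected.

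SLC1A1 was found in all neuron-like classes, from 43.7 and 48.1 CPM in excitatory cortical cells to 88.7 and 123 CPM in ZIC/CBLN1 neurons. In between stood inhibitory forebrain cells at 51.7 and 61.0 CPM, inhibitory midbrain cells at 73.0 and 73.7 CPM, and excitatory midbrain or thalamus cells at 93.7 and 93.6 CPM. The latter and ZIC/CBLN1 neurons overlapped in their values, while the other neighbours in this order did not. Outside neurons SLC1A1 reached at most 12.7 CPM, or 19.2 per 1000000 non-haemoglobin UMIs in erythroid-like cells.

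The 7 carriers of monoamines and acetylcholine on the lists all stayed below the minimum, with 0 to 17 UMIs over both embryos. Among them the choline importer SLC5A7 had 17 UMIs, the vesicular monoamine carrier SLC18A2 had 3 UMIs, and the dopamine carrier SLC6A3 and the noradrenaline carrier SLC6A2 had 0. A count of 0 allows up to 3 UMIs in each, so these carriers were not detectable at this depth, which does not show that they were absent. SLC6A9, a glycine carrier also below the minimum, had 38 of its 73 UMIs in erythroid-like cells.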

How the data were processed

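Single-cell transcriptomes of whole brains from 2 tree shrew embryos were analysed. The authors aligned the reads with Cell Ranger 3.1.0 to the TS_2.0 assembly and deposited raw UMI counts per gene model and barcode, without normalization. Per the labels, the submitters' notes also name fastp and Seurat 3.

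Cells with at least 200 genes detected were clustered (2000 variable genes without SLC names, 20 components, leidenalg 0.10.2 at a resolution of 0.5; unnamed clusters once more at 0.3). A cluster was named when at least 3 markers of a type were detected in 10% of its cells and 2 times higher than elsewhere. This left 1586 cells unnamed. UMI sums per embryo and class (at least 20 cells) entered the quasi-likelihood test of edgeR 4.0.16 (run in R 4.3.3), with filterByExpr, TMM factors, embryo as a block, Benjamini-Hochberg adjustment over 10541 names, threshold 0.05. The block is used because all class sums with 1 embryo number come from the same animal. Over 66 pairs of classes, the embryo differences of 6015 names correlated at 0.026 to 0.589 (median 0.137), above 0.1 in 48 pairs. Tested on simulated 4-fold changes, the procedure recovered 98.9% in the erythroid, 97.7% in the radial glia, 55.8% in the microglia, 52% in the endothelial, 53.1% in the fibroblast, 49.4% in the choroid plexus, 94.7% in the inhibitory and 93.8% in the dividing cell comparison. Simulated libraries had the real depth but the mean profile of the reference classes. The erythroid figure therefore leaves out the haemoglobin share of 84.6% and 83.4% in embryos 1 and 2. It does not describe recovery at the real non-haemoglobin depth of those cells.

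Doublets were kept, because Scrublet called 1 cell in each embryo. CPM is UMIs per 1000000 UMIs. Intervals (95%) and the floor of 3 counts cover counting error only. Depth per class and embryo ran from 226114 to 9721085 UMIs.

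Members, lists, classes and tests were chosen with earlier results of these data known. Named members were those called on the list of a class (up to 6), the 3 with the largest ratio to any other class, the 5 with the most UMIs, and the strongest call of each family in the erythroid and radial glia comparisons. Others are said to be chosen after their values were seen. Of 116 members, 111 matched a symbol in RefSeq TupChi_1.0, whose coordinates were not used. No sequences were used here. Results of some members are not reported here.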

Additional observations from a re-analysis of the deposited data

Results flagged for a closer look

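Barcodes with fewer than 200 genes detected were left out of all comparisons: 840 of embryo 1 and 359 of embryo 2, in which haemoglobin took 92.8% and 94.4% of the UMIs. In these barcodes 8 members had more than 3 UMIs in each embryo, which is above what a count of 0 allows. The urea transporter SLC14A1 had 20 and 17 UMIs in embryos 1 and 2, and the anion exchanger SLC4A1 had 5 and 4. The other members found there are spread over many classes: SLC25A6 had 19 and 5 UMIs, SLC35B1 17 and 9, SLC39A6 16 and 6, SLC4A1AP 12 and 5, SLC25A51 6 and 4, and SLC39A10 5 and 4. No control samples exist for this measurement, and the source of these UMIs was not tested.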

How the results depend on the processing

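The number of erythroid calls moved most: 37 members were called, but 98 with library totals, 58 with haemoglobin-free totals, 16 in cells with at least 1000 genes (95 members tested) and 17 with cluster 8 alone. The comparison of both erythroid clusters called 23 members (13 higher, 10 lower), and 44 with library totals (all higher). Without the replicate block, 7 members in place of 12 were called between inhibitory and excitatory cells and 11 in place of 21 between dividing and radial glia-like cells, and elsewhere the block moved no count of calls by more than 1.5 times, though SLC16A11 and SLC3A2 (erythroid), SLC29A4 and SLC1A4 (radial glia), and SLC12A1 and SLC12A2 (inhibitory) lost their calls. DESeq2 1.42.0 called 6 and 11 in those comparisons. At least 1000 genes per cell gave 7 inhibitory calls, of which 1 was shared with the 12, and left no choroid plexus-like or endothelial-like class. The cause of these changes was not tested.

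With library totals 10 called members changed sign in the erythroid comparison. Among those named for it, the log2 fold change turned to -2.02 for SLC12A1, -0.93 for SLC27A3, -2.21 for SLC16A11, -0.80 for SLC40A1, -1.66 for SLC43A1, -0.67 for SLC20A1 and -2.77 for SLC3A2. With haemoglobin-free totals it turned to -0.12 for SLC3A2. Without embryo 1 it was -0.19 for SLC12A1 and -0.069 for SLC2A12, and without embryo 2 1.66 and 1.72, and with cluster 11 alone -0.81 for SLC2A12. Leaving out an embryo gives values with no test, since 1 embryo leaves no residual degrees of freedom. The share of higher calls also moved with library totals among microglia-like cells (13 higher, 13 lower) and choroid plexus-like cells (17 and 15), and with RLE factors among endothelial-like cells (18 and 12) and choroid plexus-like cells (19 and 7). A minimum of 200 UMIs kept 73 members and 50 UMIs 149, and either embryo alone kept 69 to 80. All other counts of calls stayed within 1.5 times. Small classes limit the depth: 3 counts were 13.3 CPM in endothelial-like cells of embryo 1.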
